A study of Mus musculus with 26 samples.

Results

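The comparison described here sets 2 arrays of an adult germline stem cell line, GSC[adult] (labelled day 40), against 2 arrays of a neonatal one, GSC[neonatal] (labelled day 10). These 4 arrays were chosen by their titles out of 26 arrays of 13 mouse lines, each line being on 2 Illumina MouseRef-8 bead arrays. Both germline stem cell lines carry the strain label OG2, a mouse with a GFP transgene driven by Oct4 regulatory sequence, as do the other lines of the study. Both are labelled as not pluripotent. The other lines are 8 pluripotent clones from these 2 germline lines (iPSC[GSCadult], gPSC[GSCadult], iPSC[GSCneonatal] and gPSC[GSCneonatal], 2 clones each), an ESC line, an iPSC line from fibroblasts and embryonic fibroblasts (MEF). The iPSC clones are induced pluripotent cells, and the gPSC clones converted spontaneously from germline stem cells. Each side of the comparison is 1 line, so the labelled age (adult or neonatal) and any other property of that line cannot be told apart. The 2 arrays of a line are called biological replicates in the labels, which do not say that they come from separate cultures, and the p-values measure the spread between arrays of a line.

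Germline stem cells are cultured spermatogonial stem cells. In the testis these cells divide in response to GDNF from Sertoli cells, which signals through the receptor RET and its partner GFRA1, and to FGF, and both signals raise a set of transcription factors that includes the ETS factors ETV4 and ETV5. Cells that leave the stem cell pool pass through a progenitor stage marked by the basic helix-loop-helix factor NEUROG3, and retinoic acid then induces STRA8 and commits them to differentiation and later to meiosis. Spermatogonial stem cells express Pou5f1, the gene of the pluripotency factor OCT4, while Nanog and Sox2 are low or silent in them.

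The 4 arrays carried the germline label in their own markers. All 8 germline stem cell markers measured (Ddx4, Dazl, Gfra1, Ret, Etv5, Bcl6b, Id4 and Lhx1) were detected on all 4 arrays, detection meaning a deposited detection p-value under 0.01. The summed normalised signal of these 8 genes, taken off the log scale, was 4581 to 5882 on the 4 arrays. Most of that sum was Dazl, with log2 levels of 11.86 to 12.26 on the 4 arrays. Ret had 8.50 to 9.10 and Gfra1 5.08 to 5.58, so the sum says little of the fainter markers. It was 193 to 211 on the MEF arrays and 629 to 696 on the ESC arrays. Etv5 by itself did not mark the germline lines, at 5.35 in GSC[adult] and 6.23 in GSC[neonatal] against 5.67 in MEF and 8.53 in ESC. Of 6 pluripotency markers Klf4, Zfp42 and Esrrb were detected and Nanog, Sox2 and Tdgf1 were detected on none of the 4 arrays. Star, Cyp11a1, Cyp17a1 and Insl3, which mark the steroid-producing Leydig cells, were detected on none. Of 7 Sertoli markers 4 were detected on at least 1 of the 4 arrays, and only Wt1 on all 4. Of 5 meiotic and spermatid markers only Spo11 was detected on all 4 arrays. Fibroblast markers were present on both sides, and their sum differed between them. Most of the gap between the lines came from Dcn and Thy1, and Col1a1 overlapped between them. Their summed normalised signal over 7 genes was 434 and 469 on the GSC[adult] arrays, 697 and 741 on the GSC[neonatal] arrays, and 10322 to 10895 on the MEF arrays. Of these 7 genes Col1a1, Col3a1, Dcn, Lum and Thy1 were detected on all 4 germline arrays, and Col1a2 and Postn on none.

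The arrays of the 2 lines were close to each other. Across 9840 genes, which are not independent replicates, Pearson's r was 0.994 between the GSC[adult] arrays, with 8 genes at least 2-fold apart, and 0.996 between the GSC[neonatal] arrays, with 1 gene. Between the lines, same-numbered arrays correlated at 0.993 and 0.992, with 23 and 33 genes at least 2-fold apart, and differently numbered arrays at 0.991 and 0.99, with 43 and 52 genes. The GSC[adult] arrays detected 43.6% and 47.01% of the probes and the GSC[neonatal] arrays 45.7% and 45.9%. The median intensity was 101 on array 1 and 90.1 on array 2 of GSC[adult], against 101 on array 1 and 93.6 on array 2 of GSC[neonatal], so that array number and array background went together. Levels below are background-corrected, quantile-normalised log2 signals, and differences are log2 GSC[adult] minus GSC[neonatal] with the standard error of a limma fit over all 26 arrays.

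The promoters of 6 genes that the results turn on are shown first, because 2 of them (Pou5f1 and Tcf19) belong to immediate neighbours that were both higher in GSC[adult], 1 (Ly6g6c) to a separate run of higher genes on the same chromosome, and the others to 2 genes higher in that line (Neurog3 and Afp) and a GDNF target lower in it (Etv5). Each runs 5′ to 3′ on the gene's strand from 250 bases before to 50 bases after the start given by RefSeq on build GRCm38.p6. Capitals mark matches to any of 6 motifs searched on both strands. The GC box was searched as GGGCGG and the octamer, which POU factors bind, as ATGCAAAT. The core promoter box of many tissue-specific genes was searched as TATAAA and the site of ETS factors as CCGGAAGT. The site of FOS and JUN dimers (AP-1) was searched as TGACTCA and the cAMP response element as TGACGTCA, and none of these contains another.
Neurog3, chr10:62132840-62133139, plus strand: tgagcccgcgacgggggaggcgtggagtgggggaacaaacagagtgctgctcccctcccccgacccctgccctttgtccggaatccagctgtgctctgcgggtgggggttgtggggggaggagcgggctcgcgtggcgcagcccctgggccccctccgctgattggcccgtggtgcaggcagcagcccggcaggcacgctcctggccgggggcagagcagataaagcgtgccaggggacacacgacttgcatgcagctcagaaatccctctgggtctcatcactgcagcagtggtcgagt
Pou5f1, chr17:35505782-35506081, plus strand: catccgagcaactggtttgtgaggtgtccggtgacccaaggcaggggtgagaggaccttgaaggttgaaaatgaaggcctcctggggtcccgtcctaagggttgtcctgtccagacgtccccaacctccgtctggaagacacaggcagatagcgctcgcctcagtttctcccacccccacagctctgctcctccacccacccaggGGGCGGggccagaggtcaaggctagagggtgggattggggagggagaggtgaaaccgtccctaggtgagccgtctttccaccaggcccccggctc
Tcf19, chr17:35516775-35517074, minus strand: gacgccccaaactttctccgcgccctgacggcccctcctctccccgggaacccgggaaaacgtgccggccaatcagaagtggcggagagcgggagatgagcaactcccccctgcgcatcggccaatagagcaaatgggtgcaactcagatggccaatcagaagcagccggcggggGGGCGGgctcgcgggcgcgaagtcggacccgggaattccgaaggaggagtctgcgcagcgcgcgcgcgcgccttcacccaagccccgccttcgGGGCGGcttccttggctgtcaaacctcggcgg
Ly6g6c, chr17:35067075-35067374, plus strand: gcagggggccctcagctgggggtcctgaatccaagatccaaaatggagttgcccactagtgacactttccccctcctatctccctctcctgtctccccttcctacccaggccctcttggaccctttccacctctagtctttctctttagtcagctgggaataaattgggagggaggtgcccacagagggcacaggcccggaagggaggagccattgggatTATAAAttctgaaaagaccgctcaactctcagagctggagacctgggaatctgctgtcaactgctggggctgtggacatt
Afp, chr5:90490464-90490763, plus strand: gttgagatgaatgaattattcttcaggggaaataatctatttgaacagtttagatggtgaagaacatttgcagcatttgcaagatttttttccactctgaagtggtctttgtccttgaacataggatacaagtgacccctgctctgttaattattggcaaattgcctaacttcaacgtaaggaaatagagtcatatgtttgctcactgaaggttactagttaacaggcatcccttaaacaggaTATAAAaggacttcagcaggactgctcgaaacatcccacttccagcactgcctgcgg
Etv5, chr16:22439521-22439820, minus strand: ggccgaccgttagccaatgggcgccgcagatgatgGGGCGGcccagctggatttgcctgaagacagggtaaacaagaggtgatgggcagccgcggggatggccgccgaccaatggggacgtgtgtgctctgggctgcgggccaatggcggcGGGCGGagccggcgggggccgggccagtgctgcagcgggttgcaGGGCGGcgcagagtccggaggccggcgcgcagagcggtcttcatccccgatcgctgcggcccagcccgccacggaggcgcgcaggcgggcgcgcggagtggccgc

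The Etv5 window held 3 GC boxes, that of Tcf19 held 2 and that of Pou5f1 held 1. Ly6g6c and Afp had no GC box and a TATA box that began 30 and 7 bases before the annotated start. The Neurog3 window held none of the 6 motifs. Of the 27025 genes with a promoter in the RefSeq table, 35.9% had a GC box and 14.2% a TATA box in this window, and of the 7989 of them that were tested here 64.8% and 7.82%. The ETS site was in 6.91% of the promoters of genes that passed as higher in GSC[adult] (28 of 405), in 2.99% of those that passed as lower (14 of 469) and in 8.3% of the tested genes. The AP-1 site was in 5.19% of the higher set (21 of 405), in 6.61% of the lower set (31 of 469) and in 3.72% of the tested genes. The octamer, the motif bound by OCT4, was in 0.741% of the higher set (3 of 405), 2.56% of the lower set (12 of 469) and 1.49% of the tested genes. A match is a run of letters in this window and was not tested as a binding site.

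A gene was called when its limma adjusted p (Benjamini-Hochberg over all genes) was under 0.05, its 2 arrays on one side did not overlap the 2 on the other, both arrays of the higher side detected it and the lines differed at least 2-fold. Of 9840 genes 19 were called higher in GSC[adult], which is 0.193% of those tested, and 11 were called lower, which is 0.112%. At any fold, 507 genes passed the other 3 conditions as higher (5.15%) and 576 as lower (5.85%), and the median size of the difference among them was 0.43 and 0.45 on the log2 scale. Arrays that do not overlap were common by themselves, at 4656 of 9840 genes (47.3%). Arrays that do not overlap fix the same direction in every pair of arrays, so direction in the pairs carries nothing further. In both pairs of same-numbered arrays the difference was at least 2-fold for 12 of the 19 higher genes and for 4 of the 11 lower genes.

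How many genes reached 2-fold depended on how array background was treated. Without background correction 3 were called higher and 1 lower, and with an offset of 50 in place of 16 the counts were 9 and 3. In the authors' own normalised matrix, which differs in scale and normalisation too and whose steps are not stated, they were 43 and 56. That matrix called all 30 of the genes named here and others besides. In the 16 alternatives fitted to the genes, all 30 kept their direction and a limma adjusted p under 0.05, which reached at most 0.0419 (in the authors' matrix). Where an alternative kept the same normalised values, direction could not turn, because a call requires arrays that do not overlap. The 30 were also selected on these arrays by adjusted p and fold, so the alternatives are no independent test of them. The median difference in size of the 30 genes was 1.18. It was 0.73 without background correction, 0.92 with the offset of 50 and 1.51 in the authors' matrix. The number that passed at any fold rested more on the other lines in the fit and on single arrays. A fit to the 4 germline arrays alone passed 64 higher and 73 lower genes and called the same 19 and 11 genes at 2-fold. Without GSC[adult] array 2 the counts at any fold were 319 higher and 336 lower, without GSC[neonatal] array 1 they were 307 and 317, and without GSC[neonatal] array 2 they were 256 and 348. Median scaling without a quantile step passed 577 genes as higher and 417 as lower.

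**Figure D1:**
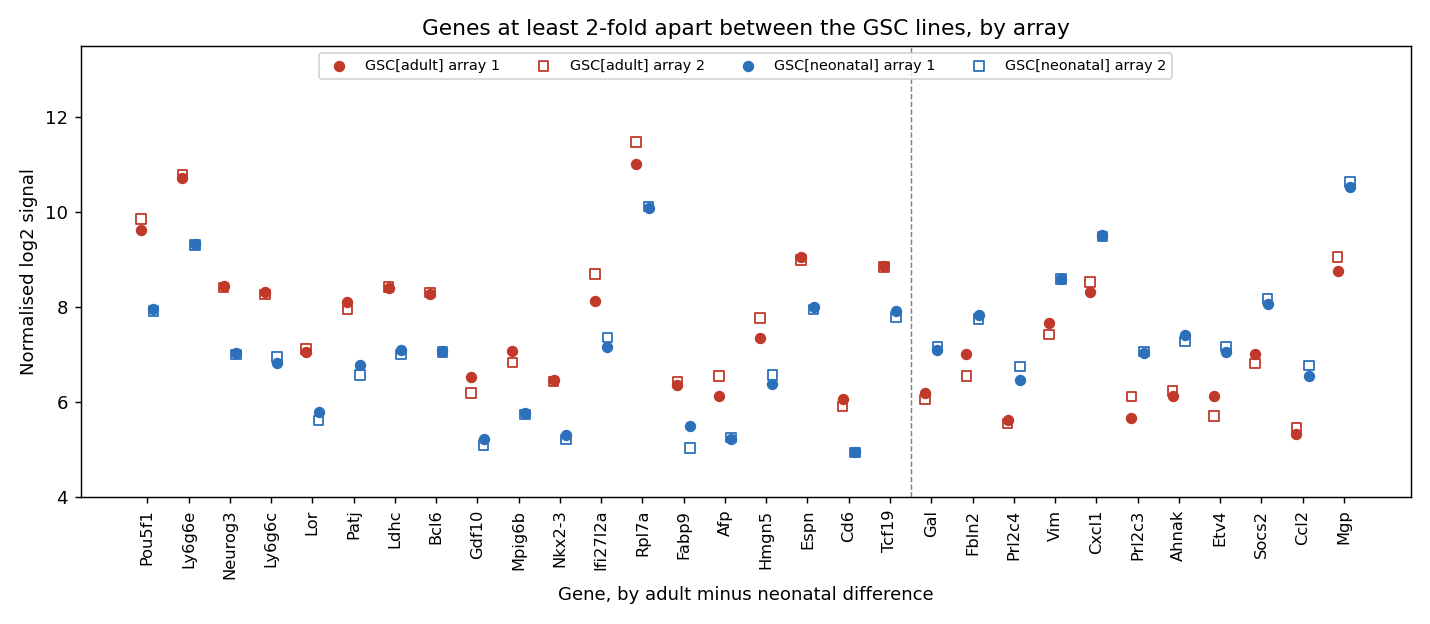
Normalised log2 signal (vertical axis) on the 2 GSC[adult] arrays (red) and the 2 GSC[neonatal] arrays (blue) for the 30 called genes, ordered by the difference between the lines. The 19 genes left of the dashed line are higher and the 11 right of it lower in GSC[adult], and a call required that the arrays of the 2 lines do not overlap.

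**Figure D2:**
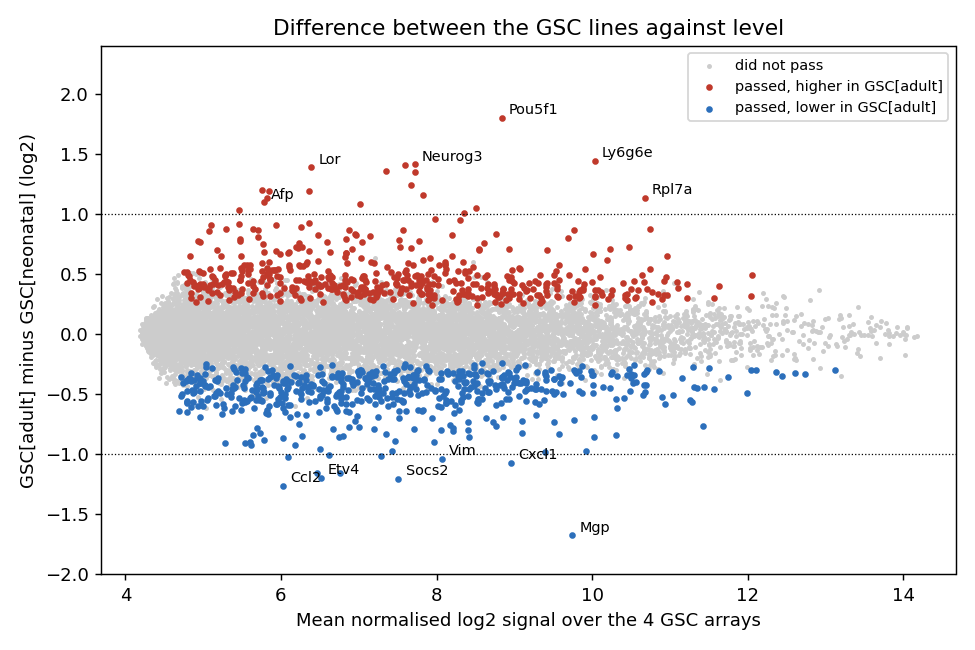
Difference between the lines, log2 GSC[adult] minus GSC[neonatal] (vertical axis), against the mean normalised log2 signal over the 4 arrays (horizontal axis) for 9840 genes, with dotted lines at 2-fold. Genes that passed are coloured (507 higher in red, 576 lower in blue), and Pou5f1 at 1.80 and Mgp at −1.68 lie farthest from 0.

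The gene with the greatest difference was Pou5f1. Its signal was 9.63 and 9.85 on the GSC[adult] arrays and 7.96 and 7.92 on the GSC[neonatal] arrays, so that both adult arrays stood above both neonatal ones. The difference was 1.80 ± 0.11 (3.48-fold, limma adjusted p = 5.68e-09), and a separate Pou5f1 probe gave 1.76. Neither germline line reached the level of the pluripotent lines, whose means lay between 11.42 (ESC) and 12.06. MEF had 4.40, at background.

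Of 31 measured members of the pluripotency list 2 passed as higher in GSC[adult] (Pou5f1, and the zinc finger factor gene Sall1 at 0.34 ± 0.11) and 2 as lower, near the shares of 5.15% and 5.85% over all genes tested, and the median was 0.03, against 0.00 over all genes. The lower ones were Klf2, a Krüppel-like factor of the naive network (−0.49 ± 0.10), and Tcl1, a co-activator of the AKT kinase (−0.49 ± 0.10). Without GSC[neonatal] array 1 the counts were 1 higher and 1 lower, without GSC[neonatal] array 2 they were 1 and 2, and without GSC[adult] array 1 they were 2 and 1. With a trended, robust eBayes step they were 5 and 2. Nanog and Sox2 stayed at background on all 4 arrays. Klf4 had 8.46 and 8.83 in GSC[adult] and 8.62 and 8.98 in GSC[neonatal]. The lines overlapped, and the difference of −0.15 had a 95% interval of −0.41 to 0.11.

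Neurog3, the gene of the progenitor factor, had 8.45 and 8.41 on the GSC[adult] arrays and 7.02 and 7.003 on the GSC[neonatal] arrays. The arrays of a line lay within a few hundredths of each other, and the lines were 1.41 ± 0.07 apart (2.66-fold, limma adjusted p = 4.1e-10). Stra8, the target of retinoic acid at the entry into differentiation, had 7.61 and 8.20 in GSC[adult] against 6.99 and 7.26 in GSC[neonatal]. The lines did not overlap for Stra8 and differed by 0.78 ± 0.16 (limma adjusted p = 0.00366), under 2-fold. Its adjusted p was 0.0917 without GSC[adult] array 2, 0.062 without GSC[neonatal] array 1, 0.0981 on the 4 germline arrays alone and 0.132 in the authors' matrix.

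Of 20 measured genes of differentiating spermatogonia, 8 passed as higher in GSC[adult] and 2 as lower, with a median of 0.29. The shares over all genes tested were 5.15% higher and 5.85% lower. The list takes in progenitor genes too, among them Neurog3, its only member called at 2-fold, and Kit was not analysed. All lists were chosen with earlier results of these data known. Members of this and the following lists that passed under 2-fold were picked for naming after their values were seen. Beside Neurog3 and Stra8, the higher ones were Upp1, a pyrimidine salvage enzyme (0.42 ± 0.07, other probes 0.20 to 0.47), Sox3, an X-linked SRY-related factor needed by spermatogonial progenitors (0.39 ± 0.09), Dnmt3b, a de novo DNA methyltransferase (0.36 ± 0.08), Kdm1b, a histone H3K4 demethylase (0.33 ± 0.10, other probes 0.10 to 0.41), Pdpn (0.31 ± 0.10) and Ddit4 (0.27 ± 0.08). The lower ones were Ccnd1, the cyclin D1 gene (−0.71 ± 0.08), and Dnmt3l, the cofactor of de novo methylation in the germline. Dnmt3l had 4.73 and 4.91 in GSC[adult] and 5.70 and 5.75 in GSC[neonatal], a difference of −0.90 ± 0.08, and its other detected probe gave −0.89. Sohlh1, a transcription factor of differentiating spermatogonia, was abundant in both lines, at 11.15 and 11.12 in GSC[adult] and 10.89 and 10.75 in GSC[neonatal], and did not pass (0.31 ± 0.12, limma adjusted p = 0.114). It passed without background correction (limma adjusted p = 0.000238) and with an offset of 50 (0.004). The count of 8 higher members was 1 on the 4 germline arrays alone, 2 without GSC[neonatal] array 1, 4 without GSC[adult] array 2 and 5 without either remaining array.

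Retinoic acid genes gave 3 higher and 0 lower among 14 measured (5.15% and 5.85% over all genes tested), with a median of 0.12. They were Stra8, the nuclear receptor gene Rxrb (0.49 ± 0.10, other probe 0.14) and the retinal reductase gene Rdh11 (0.37 ± 0.10). The count was 1 without GSC[adult] array 2, 1 without GSC[neonatal] array 1 and 0 on the 4 germline arrays alone. It was 6 with an offset of 50, and 5 without background correction, with genes detected on at least 2 of the 4 germline arrays, or with array background as a block.

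A run of 5 genes lying side by side on chromosome 17 passed as higher together. In the order of RefSeq on GRCm38.p6 they are Ddah2, Mpig6b, Ly6g6c, Ly6g6d and Ly6g6e, in the class III part of the major histocompatibility complex, and all 5 protein-coding genes of the run were measured. Ly6g6c, Ly6g6d and Ly6g6e encode small LY6-family proteins, mostly anchored to the cell surface by a lipid. This neighbourhood was noticed after the values were seen and is given as a description.

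Ly6g6e had 10.73 and 10.79 on the GSC[adult] arrays and 9.32 and 9.30 on the GSC[neonatal] arrays (1.44 ± 0.11, 2.72-fold, limma adjusted p = 5.31e-08). Ly6g6c had 8.32 and 8.27 in GSC[adult] and 6.82 and 6.95 in GSC[neonatal] (1.41 ± 0.12, 2.66-fold). Mpig6b, which encodes an inhibitory receptor of megakaryocytes and platelets, had 7.07 and 6.83 in GSC[adult] and 5.78 and 5.74 in GSC[neonatal] (1.19 ± 0.11). In each of these the adult arrays stood more than 1 log2 unit above the neonatal ones. Ddah2, the gene of a dimethylarginine hydrolase, differed by 0.83 ± 0.19 and Ly6g6d by 0.75 ± 0.16, both under 2-fold.

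Pou5f1 itself lies on the same chromosome with Tcf19 as its immediate neighbour, no protein-coding gene lying between them. Tcf19, which encodes a factor expressed as cells enter the DNA synthesis phase, had 8.86 and 8.84 in GSC[adult] and 7.91 and 7.79 in GSC[neonatal] (1.01 ± 0.09, 2.01-fold, limma adjusted p = 7.18e-07). Between Ly6g6e and Pou5f1 lie 25 protein-coding genes, and none of the 12 that were measured passed in either direction. Chromosome 17 held 5 of the 19 genes called higher and 0 of the 11 called lower, and 4.97% of all genes tested. Over its 489 tested genes the median difference was 0.03, with 35 higher and 27 lower. The marker 1700001C19Rik also maps there. It had 6.05 and 6.23 in GSC[adult] and 5.20 and 5.35 in GSC[neonatal], and passed at 0.86 ± 0.13 without reaching 2-fold (limma adjusted p = 0.00021), with an adjusted p of 0.0878 in the authors' matrix.

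Of 23 measured genes of the GDNF and FGF response 9 passed as lower in GSC[adult] and 1 as higher, with a median of −0.34. Over all genes tested 5.85% passed as lower and 5.15% as higher. Etv4, an ETS factor induced by GDNF and FGF in these cells, had 6.12 and 5.70 in GSC[adult] and 7.05 and 7.16 in GSC[neonatal]. Its difference was −1.20 ± 0.12 (2.30-fold, limma adjusted p = 4.06e-06). Etv5, its close relative and the gene whose loss empties the stem cell pool in mice, had 5.22 and 5.47 in GSC[adult] and 6.34 and 6.12 in GSC[neonatal] (−0.88 ± 0.11). For both genes every adult array lay below every neonatal array. Further down the list were the cyclin genes Ccnd2 (−0.98 ± 0.12) and Ccnd1, the FGF-induced genes Phlda1 (−0.69 ± 0.09) and Dusp6, a phosphatase that acts on ERK (−0.51 ± 0.10), and Ier3, Egr2 and Fos. Ier3, Egr2 and Fos are counted again among the immediate-early genes below. Ccnd1 was also counted among the genes of differentiating spermatogonia. Lhx1, a GDNF-induced homeobox gene, went the other way with 6.10 and 6.09 in GSC[adult] against 5.55 and 5.54 in GSC[neonatal] (0.55 ± 0.09). On the 4 germline arrays alone 5 of the 23 passed as lower and 0 as higher.

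Of the GDNF receptor subunits 1 passed. Ret, the signalling receptor, had 8.58 and 8.50 in GSC[adult] and 9.10 and 8.88 in GSC[neonatal], and passed at −0.45 ± 0.13 (limma adjusted p = 0.0291). That call was lost without GSC[adult] array 1 (0.0634), without GSC[adult] array 2 (0.143), without GSC[neonatal] array 1 (0.227), on the 4 germline arrays alone (0.109), with median scaling (0.0901) and in the authors' matrix (0.539), all as limma adjusted p. Gfra1, the binding subunit, had 5.34 and 5.20 in GSC[adult] and 5.58 and 5.08 in GSC[neonatal]. The lines overlapped, with a difference of −0.06 and a 95% interval of −0.38 to 0.26.

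Among 31 measured genes of spermatogonial stem cell self-renewal, 11 passed as lower and 1 as higher, with a median of −0.14. The shares over all genes tested were 5.85% lower and 5.15% higher. Etv4, Etv5, Lhx1, Ccnd2, Egr2 and Dusp6 stand on the GDNF and FGF list as well. The others that passed were Ret, Tspan8, a surface tetraspanin of stem-enriched spermatogonia (−0.86 ± 0.10), the T-box factor gene Eomes (−0.67 ± 0.12), the laminin receptor gene Itga6 (−0.54 ± 0.12), Thy1 (−0.49 ± 0.12) and Tcl1. Itga6 and Thy1 encode surface proteins used to sort spermatogonial stem cells, and Thy1 is also a fibroblast marker. Id4, an inhibitor of helix-loop-helix factors in stem cells, had 7.28 and 7.38 in GSC[adult] and 7.48 and 7.45 in GSC[neonatal] (−0.14 ± 0.12, 95% interval −0.39 to 0.11). Bcl6b, a GDNF target, had 5.67 and 5.50 in GSC[adult] and 5.92 and 5.72 in GSC[neonatal] and did not pass (limma adjusted p = 0.271). Nanos2, an RNA-binding protein that holds spermatogonia undifferentiated, had 8.19 and 8.32 in GSC[adult] and 7.998 and 7.98 in GSC[neonatal] (0.27 ± 0.13, limma adjusted p = 0.198). It passed without background correction (limma adjusted p = 0.00958) and with an offset of 50 (0.0179). On the 4 germline arrays alone 4 of the 31 passed as lower and 0 as higher.

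Of 22 measured genes of germ cell identity and RNA-binding 1 passed as higher (Tfap2c, a factor of early germ cells, 0.34 ± 0.09) and 1 as lower (the RNA-binding gene Elavl2, −0.34 ± 0.09), near the shares of 5.15% and 5.85% over all genes tested. Tfap2c passed in no fit that left out GSC[adult] array 2 or either GSC[neonatal] array, and Elavl2 in none without GSC[adult] array 1, GSC[adult] array 2 or GSC[neonatal] array 1. Dazl, an RNA-binding protein of all germ cells, had 11.86 and 12.07 in GSC[adult] and 11.91 and 12.26 in GSC[neonatal]. The lines overlapped and the 95% interval of the difference was −0.38 to 0.14. Ddx4, the germline helicase, had 8.03 and 8.26 in GSC[adult] and 7.65 and 8.09 in GSC[neonatal], also with overlap, and its second detected probe gave 0.91 against 0.27. Of 15 piRNA and Tudor domain genes 2 passed as higher, Piwil1 (0.50 ± 0.14) and Tdrkh (0.37 ± 0.11), with 0 to 1 passing with 1 germline array left out. Of 5 Rhox homeobox genes, an X-linked cluster expressed in reproductive tissue, Rhox10 (0.53 ± 0.09) and Rhox9 (0.46 ± 0.09) passed as higher, and the count was 1 without GSC[adult] array 2.

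A few genes known from later germ cell stages were detected. Ldhc, the testis form of lactate dehydrogenase, had 8.39 and 8.42 on the GSC[adult] arrays and 7.10 and 6.998 on the GSC[neonatal] arrays (1.35 ± 0.09, 2.55-fold, limma adjusted p = 7.55e-09), and 2 other probes gave 0.99 and 1.32. Fabp9, a fatty acid-binding protein of the sperm head, had 6.36 and 6.42 in GSC[adult] and 5.49 and 5.03 in GSC[neonatal] (1.13 ± 0.14). The adult arrays were higher for both. Ldhc was also detected on both ESC arrays and on all 16 clone arrays. Its mean was 7.44 in ESC and 8.30 in iPSC[GSCneonatal]#1, so in these lines it was not particular to germ cells. Of 10 spermatid genes 2 passed as higher (Ldhc and the chaperone gene Clgn) and 1 as lower (Izumo1, the sperm fusion protein). Of 18 meiosis genes 2 passed as higher and 1 as lower. Over all genes tested the shares were 5.15% higher and 5.85% lower. Spo11, which makes the meiotic DNA breaks, differed by 0.61 ± 0.11 but its other probe gave 0.02. Msh5, a crossover protein, was at background on both GSC[neonatal] arrays, at least 1.10-fold below GSC[adult] (limma adjusted p = 0.00654). Stag3, a meiotic cohesin, was lower in GSC[adult] (−0.44 ± 0.11). With 1 germline array left out 1 to 2 spermatid and 1 to 3 meiosis genes passed as higher.

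The remaining genes called higher belong to several functions. Lor encodes loricrin, an envelope protein of the epidermis, and had 7.06 and 7.11 in GSC[adult] and 5.78 and 5.61 in GSC[neonatal] (1.39 ± 0.12). Bcl6, a transcriptional repressor known from germinal centre B cells, had 8.28 and 8.31 in GSC[adult] and 7.06 and 7.05 in GSC[neonatal] (1.24 ± 0.11). Gdf10, a TGF-beta family ligand, had 6.53 and 6.19 in GSC[adult] and 5.23 and 5.09 in GSC[neonatal] (1.20 ± 0.15). In each the adult arrays were clear of the neonatal ones.

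Nkx2-3, a homeobox gene of gut and spleen, had 6.47 and 6.43 in GSC[adult] and 5.30 and 5.21 in GSC[neonatal] (1.19 ± 0.13). Afp, the fetal serum protein made by yolk sac and liver, had 6.12 and 6.54 in GSC[adult] and 5.22 and 5.25 in GSC[neonatal] (1.10 ± 0.12, 2.14-fold, limma adjusted p = 9.41e-06). It was the sole member of 17 measured endoderm genes to pass, and the median of that list was −0.03. Espn, an actin-bundling protein found in Sertoli cells and hair cells, had 9.06 and 8.996 in GSC[adult] and 8.01 and 7.95 in GSC[neonatal], and its other probe gave 0.71 against 1.05.

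Ifi27l2a, an interferon-induced gene, had 8.13 and 8.69 in GSC[adult] and 7.15 and 7.35 in GSC[neonatal] (1.16 ± 0.16). Hmgn5, a nucleosome-binding protein gene on the X chromosome, differed by 1.08 ± 0.15, and Cd6, a lymphocyte receptor gene, by 1.04 ± 0.16 with 0.66 and 0.73 from its other probes. Rpl7a, a ribosomal protein gene with many processed copies in the genome, differed by 1.13 ± 0.13, and its probe may not be specific to 1 locus. Patj, a polarity protein gene, differed by 1.35 ± 0.11 on its brightest probe and by −0.03 and 0.12 on the other detected probes, so its probes disagreed.

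Among genes lower in GSC[adult], Mgp stood farthest out. Mgp encodes matrix Gla protein, an inhibitor of calcification, and had 8.76 and 9.05 on the GSC[adult] arrays and 10.53 and 10.63 on the GSC[neonatal] arrays (−1.68 ± 0.14, 3.19-fold, limma adjusted p = 4.37e-07). The chemokine gene Ccl2 had 5.32 and 5.46 in GSC[adult] and 6.55 and 6.77 in GSC[neonatal] (−1.26 ± 0.11). The chemokine gene Cxcl1 had 8.32 and 8.53 in GSC[adult] and 9.51 and 9.49 in GSC[neonatal] (−1.07 ± 0.10). All 3 genes had their adult arrays below their neonatal arrays.

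Socs2, a feedback inhibitor of cytokine signalling, had 7.003 and 6.81 in GSC[adult] and 8.06 and 8.17 in GSC[neonatal] (−1.20 ± 0.09). Vim, the gene of the intermediate filament vimentin, had 7.67 and 7.42 in GSC[adult] and 8.58 and 8.59 in GSC[neonatal] (−1.04 ± 0.10). Ahnak, a large scaffold protein, differed by −1.16 ± 0.12, the matrix gene Fbln2 by −1.02 ± 0.12 (other probe −0.51) and the neuropeptide gene Gal by −1.01 ± 0.09. Prl2c3 (−1.15 ± 0.13) and Prl2c4 (−1.02 ± 0.15) encode proliferins, which are near-identical copies that the probes may not separate.

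Of the 29 lists, that of fibroblast and matrix genes had the most members lower in GSC[adult]. Of 34 measured, 17 passed as lower and 1 as higher (Tgfbi, 0.33 ± 0.09), with a median of −0.51, where all genes had 5.85% lower and a median of 0.00. Dcn, the proteoglycan decorin, had 7.41 and 7.62 in GSC[adult] and 8.39 and 8.44 in GSC[neonatal] (−0.90 ± 0.09). Other members were the metalloproteinase inhibitors Timp2 (−0.81 ± 0.09) and Timp1 (−0.69 ± 0.10), the basement membrane collagens Col4a1 (−0.79 ± 0.10) and Col4a2 (−0.64 ± 0.07), Col6a1 (−0.70 ± 0.09), and Bgn, Sparc, Lum, Lox and Loxl1 between −0.69 and −0.64. Col1a1, the main collagen of fibroblasts, had 6.11 and 5.95 in GSC[adult] and 6.09 and 6.25 in GSC[neonatal], with overlap. The list gave 11 lower members on the 4 germline arrays alone, and 16 to 18 with 1 germline array left out. Tgfbi passed without GSC[adult] array 2 but not without any other array.

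The sum of the fibroblast markers also differed between the lines, mostly through Dcn and Thy1. The summed fibroblast markers given above were lower in GSC[adult], and of the 576 genes that passed as lower 53.5% stood higher in MEF than in either germline line, against 23.5% of the 507 that passed as higher and 42.4% of all genes tested. Among the called genes this was so for 6 of the 11 lower and 2 of the 19 higher. In ESC, 50.5% of the genes that passed as lower stood above both germline lines. The share was 33.1% of those that passed as higher and 44.6% of all genes tested. Among the called genes 4 of the 11 lower and 3 of the 19 higher stood above both in ESC. The lower set thus stood above the germline lines more often than the higher set in both MEF and ESC, with the wider gap in MEF. Of the 7 fibroblast markers 5 were detected on all 4 germline arrays. Fewer fibroblast-like cells and less RNA per cell cannot be told apart in these bulk arrays, and the part of other cells in the lower genes was not tested.

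Immediate-early genes are those that respond at once to growth factors or stress. On the list of immediate-early and heat shock genes 10 of 22 measured passed as lower and 0 as higher. Over all genes tested the shares were 5.85% and 5.15%, and the list median was −0.36. All 10 were immediate-early genes, and no heat shock member passed. Fosb had 9.02 and 8.80 in GSC[adult] and 9.79 and 9.99 in GSC[neonatal] (−0.98 ± 0.13). Atf3 had 5.24 and 5.06 in GSC[adult] and 6.14 and 6.01 in GSC[neonatal] (−0.92 ± 0.11). Klf6 (−0.80 ± 0.10), Junb (−0.73 ± 0.11), Dusp1 (−0.57 ± 0.08), Jun (−0.53 ± 0.13), Zfp36 (−0.47 ± 0.08) and Fos (−0.34 ± 0.10) followed, with Ier3 and Egr2. Fos, Ier3 and Egr2 stand on the GDNF and FGF list as well, so the counts of the 2 lists are not separate. On the 4 germline arrays alone 4 of the 22 passed as lower. Without background correction 2 members passed as higher, and 1 did with the offset of 50.

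Of 21 measured p53 target and senescence genes 9 were lower and 0 higher (5.85% and 5.15% over all genes), with a median of −0.22. They included Cdkn1a, the p21 cell cycle inhibitor, with 7.504 and 7.40 in GSC[adult] and 8.04 and 8.12 in GSC[neonatal] (−0.63 ± 0.08). The others were Zmat3 (−0.84 ± 0.12), Phlda3 (−0.68 ± 0.10), Ccng1 (−0.63 ± 0.09, other probes −0.17 and −0.06), Mdm2 (−0.52 ± 0.12, other probe −0.07), Bbc3 (−0.50 ± 0.10), Gadd45a, Sesn2 and the senescence gene Cdkn2b. The count of lower members was 2 on the 4 germline arrays alone and 5 without GSC[neonatal] array 1. In the serine, one-carbon and stress response list 7 of 23 passed as lower and 0 as higher, among them the stress factor genes Ddit3 (−0.85 ± 0.14) and Nupr1 (−0.58 ± 0.10), while the median was 0.02. Without GSC[neonatal] array 1 that count was 3, and it was 4 without GSC[adult] array 2 or GSC[neonatal] array 2.

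Of 26 measured cell cycle genes 4 passed as higher, namely the replication helicase gene Mcm7 (0.60 ± 0.09) and the mitotic genes Aurka, Cdc20 and Plk1 (0.34 to 0.42, with 0.07 to 0.27 from 3 other Cdc20 probes), and 0 as lower, while the median was −0.03. Without GSC[adult] array 1 the counts were 1 higher and 3 lower, and without GSC[neonatal] array 2 they were 2 and 0. Over all genes tested 5.15% passed as higher and 5.85% as lower. Of 28 glycolysis and hypoxia genes 3 were higher, with the glucose transporter gene Slc2a1 at 0.73 ± 0.09, and 4 were lower, with Aldoa (−0.47 ± 0.09), Pkm (−0.44 ± 0.09) and Hk2 (−0.43 ± 0.09). Oxidative phosphorylation genes gave 0 higher and 2 lower of 34, and cholesterol genes 2 higher and 1 lower of 18. With 1 germline array left out the higher glycolysis genes numbered 1 to 2, the lower oxidative phosphorylation genes 0 to 2 and the higher cholesterol genes 0 to 1.

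Of 16 genes listed as paternally expressed 5 passed as lower and 1 as higher (5.85% and 5.15% over all genes), median −0.16. Igf2, the fetal growth factor, had 11.02 and 10.94 in GSC[adult] and 11.57 and 11.50 in GSC[neonatal] (−0.55 ± 0.08, limma adjusted p = 0.000105), and its adjusted p was 0.0564 on the 4 germline arrays alone. Gnas (−0.54 ± 0.15, other detected probe −0.29), Impact (−0.44 ± 0.08) and Dlk1 (−0.40 ± 0.13) were lower and Nnat, a neural membrane protein, was higher (0.71 ± 0.14). Gnas is counted here because it was on the list, and whether its probe reads a paternally expressed transcript was not tested. Rasgrf1 was not detected on the GSC[adult] arrays, at least 1.09-fold below GSC[neonatal] (limma adjusted p = 0.0249). The count of lower genes was 2 without GSC[adult] array 2 and 2 without either GSC[neonatal] array. Peg3 was not detected on the GSC[adult] arrays, at least 1.20-fold below GSC[neonatal], and did not pass (limma adjusted p = 0.0915, and 0.0344 without GSC[adult] array 1). Of 13 maternally expressed genes 2 passed as lower (Grb10, −0.62 ± 0.11, and Dcn) and 1 as higher (Ppp1r9a, 0.58 ± 0.10).

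Interferon and MHC class I genes gave 5 higher and 2 lower of 31 measured (5.15% and 5.85% over all genes), with a median of 0.03. The higher ones were Ifitm1 (0.93 ± 0.18), the immunoproteasome subunit gene Psmb10 (0.71 ± 0.10), Ifi27 (0.54 ± 0.10), Gbp2 (0.49 ± 0.10) and Oasl2 (0.43 ± 0.11). Ifitm3 (−0.58 ± 0.12) and Oasl1 (−0.48 ± 0.10) were lower. Among 16 genes of DNA methylation and the TET enzymes, 1 was higher (Dnmt3b) and 3 were lower (Dnmt3l, Gadd45a and Gadd45g). With 1 germline array left out 3 to 7 interferon genes passed as higher and 0 to 2 as lower, and 1 to 3 of the methylation genes as lower.

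The lists of other cell types and lineages are read against the same shares over all genes, 5.15% higher and 5.85% lower. Of 18 measured Sertoli genes 2 were higher (Espn and Wt1, 0.42 ± 0.13) and 4 lower, of which Etv5 and Vim stand on other lists too. Of 8 Leydig and peritubular genes 0 were higher and 2 lower, and of 8 endothelial and blood genes 0 passed in either direction. Of 18 trophoblast genes 2 were higher and 5 lower, among them Cdx2, which was at background on the GSC[adult] arrays and at least 1.16-fold below GSC[neonatal] (limma adjusted p = 0.000425). Of 14 neural and ectoderm genes 3 were lower, the filament genes Nefm (−0.96 ± 0.12) and Nes (−0.57 ± 0.10, other probe −0.28) and the zinc finger gene Zic1 (−0.79 ± 0.11). Of 10 sex-linked genes 1 was lower, the X-linked demethylase gene Kdm6a (−0.36 ± 0.09), and Xist, the X-inactivation RNA, was at or near background with 4.79 and 4.54 in GSC[adult] and 4.88 and 4.61 in GSC[neonatal]. With 1 germline array left out 0 to 3 trophoblast genes passed as higher and 4 to 6 as lower, and 0 to 1 of the sex-linked genes as lower.

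**Figure D3:**
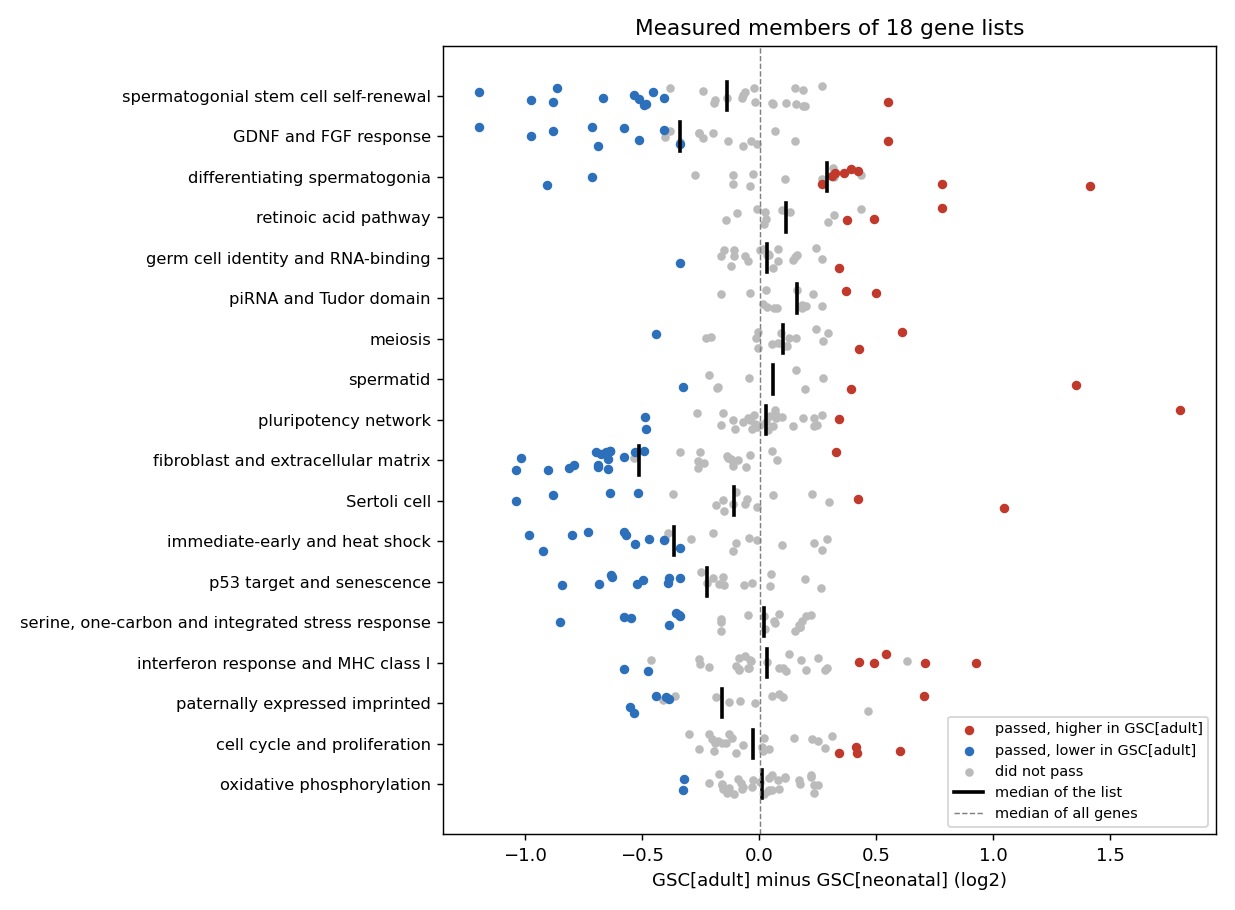
Differences, log2 GSC[adult] minus GSC[neonatal] (horizontal axis), of the measured members of 18 gene lists, with members that passed in red (higher) or blue (lower), those that did not in grey, and each list's median as a black bar. The median of fibroblast and matrix genes lies at −0.51 and that of differentiating spermatogonia at 0.29, and the dashed line marks the median of all genes at 0.00.

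**Figure D4:**
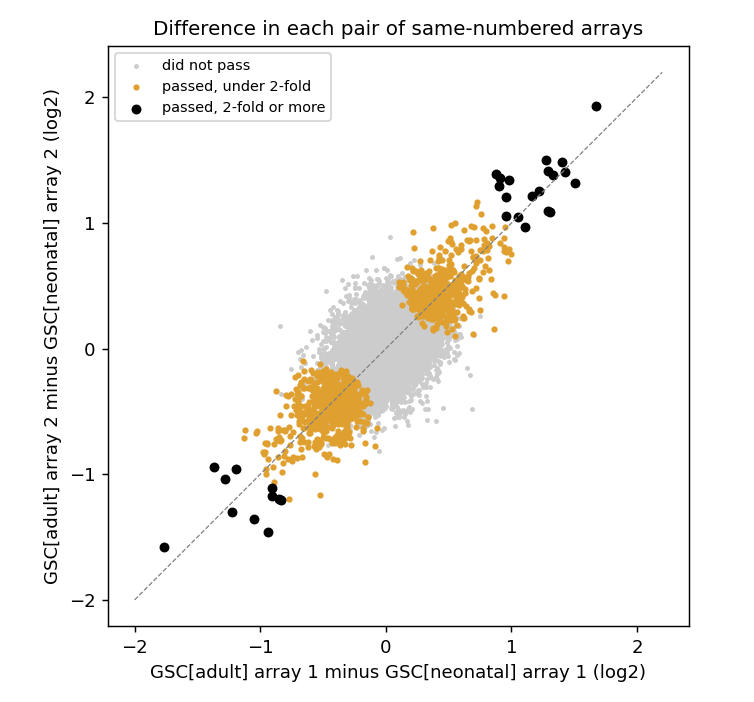
Difference between the lines in array 1 of each (horizontal axis, log2) against the difference in array 2 of each (vertical axis, log2) for 9840 genes. The 30 called genes (black) lie at the upper right or the lower left because a call requires arrays that do not overlap, and 16 of them are at least 2-fold apart in both pairs.

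The 2 lines were also compared through the pluripotent clones grown out of them, 4 clones from each origin. With 8 clone means and the method (iPSC or gPSC) as a covariate, limma called 0 of 9840 genes between adult-derived and neonatal-derived clones (0%). At an unadjusted p under 0.05 there were 545 (5.54%), and the clones of the 2 origins did not overlap for 208 genes (2.11%). The number at an unadjusted p under 0.05 lay between 225 and 824 without any single clone other than gPSC[GSCneonatal]#2, and was 1835 without that clone. Of the 19 genes called higher in GSC[adult] 6 were higher in adult-derived clones, and of the 11 called lower 2 were lower, where 4899 of all 9840 genes had the same direction in clones as in the germline lines, and clones of the 2 origins overlapped for all 30.

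Pou5f1, so different between the germline lines, had clone means of 11.55 to 12.06 in adult-derived and 11.61 to 11.84 in neonatal-derived clones, a difference of 0.16 ± 0.15 (limma adjusted p = 0.72). Neurog3 was at background in the clones of both origins, at 4.25 to 4.31 in adult-derived and 4.23 to 4.36 in neonatal-derived clones, and so was Afp, at 4.23 to 4.25 and 4.19 to 4.40. Tcf19 had 7.32 to 8.03 in adult-derived and 6.71 to 7.35 in neonatal-derived clones, a difference of 0.77 in the direction of the germline lines that did not pass (limma adjusted p = 0.684). Mgp had 7.79 to 12.52 in adult-derived and 5.73 to 10.48 in neonatal-derived clones, so that the clones varied far more than the germline lines did.

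Of the 19 genes called higher 4 were detected on no ESC or MEF array (21.1%, against 10.6% of all genes tested). All 11 called lower were detected on at least 1 of those arrays, and a contrast between counts this small was not tested. Of the 4 genes, Nkx2-3 was detected on 8 clone arrays, Gdf10 on 2 and Fabp9 on 1. Afp was detected in none of the other lines. Lor and Bcl6 stood at 6.36 and 8.32 in MEF, and Bcl6 in GSC[adult] was at 8.29. Rpl7a was lowest of all 13 lines in GSC[neonatal] (10.11), GSC[adult] at 11.24 standing next to gPSC[GSCadult]#2 at 11.15. Ccl2, Cxcl1, Mgp, Prl2c3 and Prl2c4 were all highest among the pluripotent lines in gPSC[GSCadult]#2, at 10.02, 12.17, 12.52, 7.92 and 7.57.

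**Figure D5:**
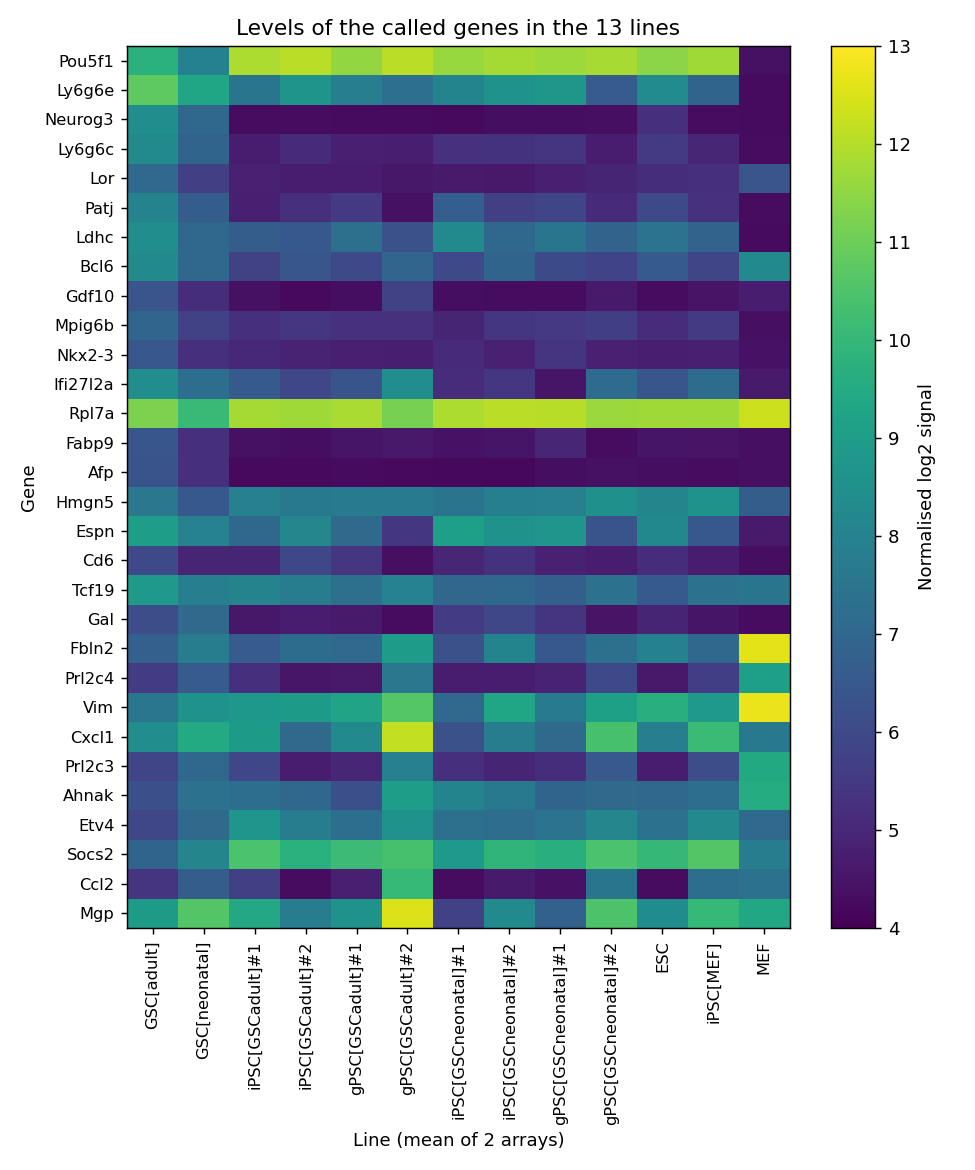
Mean normalised log2 signal (colour) of the 30 called genes (rows) in the 13 lines (columns), with GSC[adult] and GSC[neonatal] at the left. Neurog3 and Afp are dark in the columns of the pluripotent clones, while Mgp and Cxcl1 are brightest in gPSC[GSCadult]#2.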

How the data were processed

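Biotin-labelled cRNA was made from total RNA and hybridised to Illumina bead arrays, per the labels' protocols. The table the authors deposited holds a signal intensity per probe and array, and a detection p-value in the column beside it, per the file headers. BeadStudio 3.2, RMA and lumi are the tools in the submitters' processing notes, with no order given. The matrix of normalised values deposited by the authors is read as log2 from its range (0.20 to 14.16) and served as an alternative. The genome build is not given in the sources used here.

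Probes were named through a RefSeq gene table on GRCm38.p6, used for names, neighbours and promoter sequence. Of 25697 probes 23978 had 1 symbol, 1719 none and 0 several, and names came from Entrez identifiers (23962 probes), accessions (9) or the file itself (7). Intensities went through neqc of limma 3.58.1 in R 4.3.3 (offset 16), which uses the detection p-values to correct background, then normalises by quantiles and takes log2. Probes detected on at least 2 arrays were kept (14517), and each gene took its brightest kept probe, leaving 9840 genes. limma was fitted to all 26 arrays with the 13 lines as groups, which share 1 estimate of spread with 13 residual degrees of freedom. Clones were compared on 8 clone means. A gene below detection on a side has a lower bound for its fold, taken against the floor of detection. The counterpart of depth is the ratio of signal to background, which was 1.12 to 1.16 at the median of the 4 germline arrays, and the number of arrays limits the precision. The procedure was tested on simulated data with independent noise, which lacks the background shared by same-numbered arrays and so does not test its effect.

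The rule for names took up to 15 genes called in each direction, 4 markers (Neurog3, Pou5f1, Afp and 1700001C19Rik), up to 4 called members per list and a fixed set of germline, pluripotency and imprinted genes. Zbtb16, Kit, H19 and Ddx3y of that set were not analysed here. The remaining called genes and list members under 2-fold were named after their values were seen. The members, markers and 29 gene lists (510 of 765 genes measured) were chosen with earlier results of these data known. One GSC[adult] array carries the other array's number in its description, and its title was used. Alternatives covered background correction, offset, normalisation, the authors' matrix, filters, probe choice, arrays in the fit, thresholds and single arrays.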

Additional observations from a re-analysis of the deposited data

Results flagged for a closer look

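Levels in the 4 clones of each origin were looked at for 33 genes (66 groups of 4), and 6 levels stood apart from the other 3 clones of their group, where chance alone marks about 1 in 20 groups. Of these 6 levels 5 belong to gPSC[GSCneonatal]#2. In that clone Ly6g6c was 4.73 against 5.29 to 5.39 in the other neonatal-derived clones, and Espn was 6.34 against 8.63 to 9.07. Prl2c4 was 5.98 there against 4.68 to 4.88, Ccl2 was 7.48 against 4.31 to 4.66, and Gdf10 was 4.65 against 4.29 to 4.32. The sixth was Gdf10 in gPSC[GSCadult]#2, at 5.73 against 4.24 to 4.40 in the other adult-derived clones. The lowest detected signal on the gPSC[GSCneonatal]#2 arrays was 5.11 and 4.88, above its mean levels of Ly6g6c and Gdf10. In the other clones of these groups the means of Gdf10, Ccl2 and Prl2c4 also lay below the lowest detected signal. Several of these gaps are therefore differences at background.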

How the results depend on the processing

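The 2-fold counts of 19 higher and 11 lower genes were 3 and 1 without background correction, 9 and 3 with an offset of 50, 43 and 56 in the authors' matrix, 98 and 108 at a fold threshold of 1.5, and 0 and 0 at a fold threshold of 4. Leaving out 1 germline array gave 17 to 25 higher and 10 to 16 lower. The counts at any fold, 507 higher and 576 lower, were 329 higher in the authors' matrix, 64 and 73 on the 4 germline arrays alone, and 256 to 415 higher and 317 to 501 lower without 1 germline array. No other alternative run moved any of these 4 counts by more than 1.5 times, the 2 chosen after seeing the data (array background set as a block, and leaving out the MEF arrays) included. Counts within gene lists moved more often. On the 4 germline arrays alone no list had more passing members in either direction, while meiosis genes gave 4 higher with an offset of 50 (2 as reported), oxidative phosphorylation genes 4 lower without background correction (2), cell cycle genes 2 lower without background correction (0) and genes of differentiating spermatogonia 3 higher in the authors' matrix (8). Clones gave 0 calls under every alternative run for them.

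Array numbers may pair the lines: deviations of same-numbered arrays correlated at 0.41, but with 2 pairs this shares a number and an array background, and is a hint from the data. With the replicate number as a block 19 genes were called higher and 11 lower, and 524 and 599 passed at any fold. A chip or slide block was not run, since the file headers give neither.

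Directions turned for 6 genes that had not passed. With median scaling Xist was 0.0074 and Dazl 0.016, and that scaling moved the median of all genes to 0.058. Without 1 germline array Nanog lay between −0.044 and 0.19, Sox2 between −0.059 and 0.15, Gfra1 between −0.31 and 0.19, Xist between −0.21 and 0.055, Dazl between −0.29 and 0.055, and Klf4 between −0.34 and 0.035. The cause was not tested.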
